A study of Homo sapiens with 8 samples.

Results

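Accessible chromatin was examined at the 10 human genes of translesion synthesis POLH, POLK, POLI, REV1, REV3L, MAD2L2, RAD18, PCNA, UBE2A and UBE2B. The members were the distinct ATAC-seq intervals, called regions here, that overlapped the GENCODE release 44 span of one of these genes with 5 kb on each side. They were 487 of 1440417 regions in 8 lists. Regions of different lists that overlapped by at least 1 bp were joined into sites, which gave 158 sites at the 10 genes of 548046 sites in the genome. The libraries came from U2OS cells, a human osteosarcoma line. WT cells and ASH1L-/- cells, which lack a working copy of the histone methyltransferase ASH1L after CRISPR/Cas9 editing, were either left unchallenged or exposed to UV-C (20 J/m2) and harvested after 3 h. Each of the 4 groups held 2 libraries, labelled as biological replicates. ASH1L-/- cells were grown from isolated colonies, so that a difference between genotypes and one between clones cannot be told apart. All cells were treated with DNase before harvest, in every group.

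Translesion synthesis lets replication pass a damaged base that stalls the replicative polymerases. The ubiquitin-conjugating enzymes UBE2A and UBE2B act with the ubiquitin ligase RAD18 to attach ubiquitin to PCNA, the ring that holds polymerases on DNA, and modified PCNA helps to bring in polymerases with a more open active site. POLH copies past the pyrimidine dimers made by UV light, POLI is its close relative, POLK is known for passing bulky adducts, and REV1 inserts cytosine and binds the other polymerases. REV3L is the catalytic subunit of polymerase zeta, which extends from the inserted base, and MAD2L2 is its accessory subunit.

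In hg38, the polymerase genes were POLH (ENSG00000170734.12, chr6:43576185-43620523, + strand), POLK (ENSG00000122008.16, chr5:75511845-75609991, + strand) and POLI (ENSG00000101751.11, chr18:54269517-54321266, + strand). REV1 (ENSG00000135945.10) lay at chr2:99400475-99490035, REV3L (ENSG00000009413.17) at chr6:111299028-111483715 and MAD2L2 (ENSG00000116670.16) at chr1:11658918-11691811, all on the minus strand. The genes of the PCNA branch were RAD18 (ENSG00000070950.10, chr3:8775402-8963773, minus strand), PCNA (ENSG00000132646.11, chr20:5114953-5126626, minus strand), UBE2A (ENSG00000077721.17, chrX:119474802-119591083, + strand) and UBE2B (ENSG00000119048.9, chr5:134371184-134392108, + strand). For some genes the annotated span reached far past the canonical transcript. The canonical RAD18 transcript covered only chr3:8877075-8963472, and that of UBE2A chrX:119574563-119584423. Sites between the canonical transcript and the edge of the annotated span are therefore described as lying in the wider span, and distances are from the canonical transcription start site (TSS).

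The lists held 158198 to 220783 regions, and between 46 and 77 of them were members. Each region carried a fold enrichment, the ratio of the read pileup at its summit to the local background of its own library, which was not normalised between libraries. Levels are therefore given as the percentile of fold enrichment within a list, where 100 is the strongest region of that library. The lists differed in kind with UV. The median fold enrichment of a region was 2.57 to 3.71 in the 4 unchallenged lists and 3.47 to 5.06 in the 4 UV lists, and the median width was 242 to 291 bp against 356 to 444 bp. Replicate 2 of the UV-irradiated WT cells had the highest median fold enrichment (5.06) and the widest regions. The recovered depth, a mean read pileup, ranged from 1.39 to 5.87 and was highest in unchallenged ASH1L-/- replicate 1. Of 8 promoters listed as marks of a mesenchymal line, 6 had a region in all 8 lists, TWIST1 in 2 and COL1A2 in 5. Of 10 promoters of blood, liver, epithelial and neural genes, CD3E and APOA2 had none in any list, while EPCAM, GFAP and SYT1 had one in all 8, so an open promoter did not by itself mark the cell type. The part of these differences in the results was not tested.

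The sequences below are the 200 bases around the median summit of 9 sites on which the results turn, from hg38 and written along the + strand. The first pair shows the promoter of REV1, whose ranks before and after UV did not overlap, and that of PCNA, whose ranks did, the next 4 are the sites listed only after UV, and the last 3 are shared sites away from the start sites. None of these windows overlaps an annotated exon. Capitals mark matches on either strand to AP-1 (TGANTCA), RUNX (TGTGGT), TEAD (GGAATG), CRE (TGACGTCA), CCAAT box (CCAAT), GC box (GGGCGG), ETS (CCGGAAG) or E-box (CACGTG).
REV1 promoter (chr2:99490426-99490625): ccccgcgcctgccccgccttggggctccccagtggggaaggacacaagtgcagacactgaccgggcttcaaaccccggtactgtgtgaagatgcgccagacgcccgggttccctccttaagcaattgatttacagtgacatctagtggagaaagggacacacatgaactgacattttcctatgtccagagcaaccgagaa
PCNA promoter (chr20:5120033-5120232): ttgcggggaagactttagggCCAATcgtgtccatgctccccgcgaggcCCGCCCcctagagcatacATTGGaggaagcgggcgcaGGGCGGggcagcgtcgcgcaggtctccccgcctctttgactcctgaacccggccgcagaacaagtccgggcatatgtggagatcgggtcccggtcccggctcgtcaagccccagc
POLK intron, gained after UV (chr5:75567874-75568073): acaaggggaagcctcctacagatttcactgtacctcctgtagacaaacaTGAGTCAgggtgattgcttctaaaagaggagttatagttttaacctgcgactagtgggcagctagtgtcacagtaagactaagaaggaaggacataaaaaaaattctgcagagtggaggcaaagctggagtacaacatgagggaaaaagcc
REV3L intron near the start, gained after UV (chr6:111478202-111478401): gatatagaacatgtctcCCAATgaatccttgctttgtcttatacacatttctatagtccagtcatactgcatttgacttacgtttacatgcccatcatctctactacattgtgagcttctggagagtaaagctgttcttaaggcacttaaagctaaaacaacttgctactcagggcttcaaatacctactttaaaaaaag
RAD18 wider span, gained after UV (chr3:8793220-8793419): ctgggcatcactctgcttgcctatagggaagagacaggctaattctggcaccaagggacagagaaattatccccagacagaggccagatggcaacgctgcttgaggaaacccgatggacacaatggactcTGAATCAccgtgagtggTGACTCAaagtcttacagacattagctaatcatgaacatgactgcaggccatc
UBE2A wider span, gained after UV (chrX:119482594-119482793): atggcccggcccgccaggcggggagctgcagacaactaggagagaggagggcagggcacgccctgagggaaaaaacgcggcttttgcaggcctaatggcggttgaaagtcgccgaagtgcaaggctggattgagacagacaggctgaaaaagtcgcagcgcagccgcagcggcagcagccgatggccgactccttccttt
REV3L distal intron, shared (chr6:111427509-111427708): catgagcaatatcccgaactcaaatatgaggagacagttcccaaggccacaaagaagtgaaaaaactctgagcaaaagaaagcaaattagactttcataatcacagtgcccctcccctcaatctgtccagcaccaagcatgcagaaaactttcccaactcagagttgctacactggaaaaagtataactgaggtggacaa
RAD18 wider span, shared (chr3:8845829-8846028): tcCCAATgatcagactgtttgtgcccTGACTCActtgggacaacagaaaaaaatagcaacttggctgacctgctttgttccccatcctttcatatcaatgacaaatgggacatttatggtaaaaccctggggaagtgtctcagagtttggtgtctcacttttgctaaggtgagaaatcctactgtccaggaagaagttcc
RAD18 wider span, strongest (chr3:8869801-8870000): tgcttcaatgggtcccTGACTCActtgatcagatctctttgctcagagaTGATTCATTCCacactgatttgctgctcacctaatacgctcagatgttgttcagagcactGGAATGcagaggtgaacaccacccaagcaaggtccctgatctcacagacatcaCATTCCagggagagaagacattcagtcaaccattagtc

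Of the printed windows, those of RAD18 held AP-1 matches, 2 in the gained, 1 in the shared and 2 in the strongest window. The gained POLK window held 1. Windows of the other promoters, that of RAD18 included, were also scanned. So were those of the strongest sites of POLK, MAD2L2, PCNA, UBE2A and UBE2B away from their starts. None of these unprinted windows held an AP-1 match, so the printed windows alone give no rate. The strongest RAD18 window also held 3 TEAD matches, of which 1 overlapped an AP-1 match. The PCNA promoter window held 2 CCAAT boxes and 2 GC boxes, and the gained REV3L window and the shared RAD18 window at chr3:8845829-8846028 held 1 CCAAT box each. The REV1 promoter, the distal REV3L intron and the gained UBE2A window had no match. Over the genome, an AP-1 match was in 8.52% of 15133 shared promoter windows, 30.7% of 45190 shared windows elsewhere and 40.2% of 3758 windows gained after UV. GC boxes were in 37.8%, 8.0% and 6.09% of the same windows, CCAAT boxes in 24.7%, 23.4% and 26.3%, and TEAD matches in 11.3%, 19.9% and 14.7%. A match is a string of letters and was not shown to be bound.

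Every translesion gene had an accessible promoter in every library. A promoter site lay within 1 kb of the canonical TSS, and each gene had 1 such site with a region in all 8 lists, 680 to 1585 bp wide. Around other annotated starts of the genes, 2 of 17 sites were in all 8 lists, at RAD18 and PCNA. These 10 sites ranked between the percentiles 69.4 and 99.1, with fold enrichments of 5.97 to 18.7. Of the 17 promoter sites around a canonical TSS, 10 were in all 8 lists. Of 124 sites away from any start of their gene, 15 were in all 8 lists and 75 in 1 list alone. In the genome, 30.3% of the sites around any annotated protein-coding start and 11.0% of all sites were in all 8 lists. In 1 list alone were 60.5% of all sites. The 30.3% covers canonical and other starts. It therefore stands beside both member counts, 10 of 17 and 2 of 17, and not beside the first alone. The share of all genes with a promoter site in all 8 lists is not given here.

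**Figure D1:**
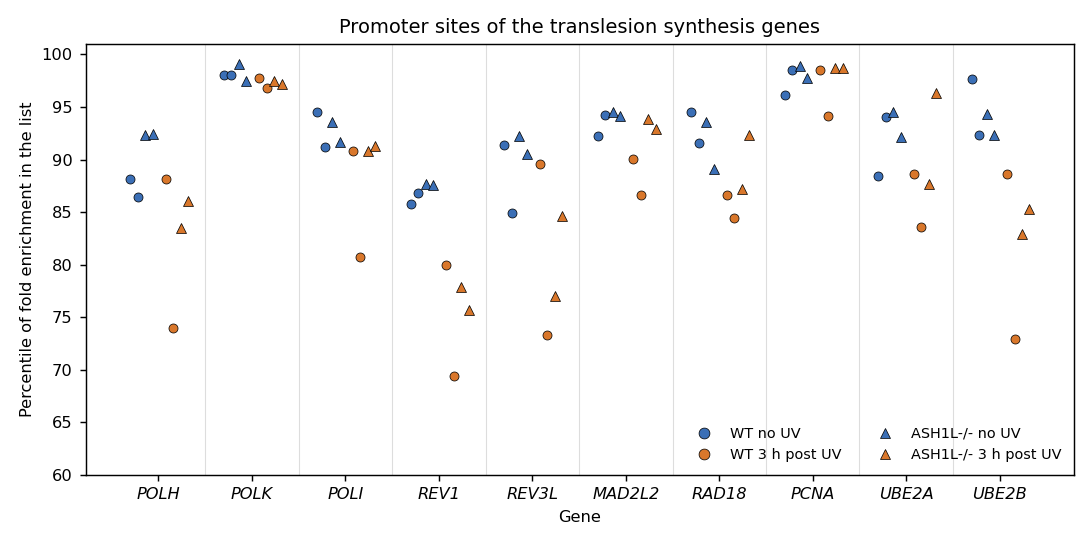
Percentile of fold enrichment within each list (y axis, from 60 to 100) at the promoter site of the 10 genes (x axis), with 1 point per library, circles for WT and triangles for ASH1L-/- cells, blue for no UV and orange for 3 h post UV. POLK and PCNA stayed above 94 in all libraries, REV1 and UBE2B showed no overlap between blue and orange points, and the lowest point of every gene was 1 library of UV-irradiated WT cells.

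After UV, all 10 promoters ranked lower within their lists, with a median difference of -4.45 percentile points (4 UV against 4 unchallenged libraries), but none passed the test. The test was limma across the 60323 sites of the genome with a region in all 8 lists, with Benjamini-Hochberg adjustment over them. It called 2.88% of these sites lower and 2.04% higher after UV at an adjusted p of 0.05, and 2.09% of the 15133 protein-coding promoter sites lower. Lower ranks after UV were general. The median difference over those promoters was -2.80 percentile points, with 74.5% of them lower, and over all shared sites it was -1.43. The fold enrichments did not follow the ranks, and their mean was higher after UV at 8 of the 10 promoters, REV1 and UBE2B being the exceptions. In all 10 promoters the lowest rank was that of replicate 2 of UV-irradiated WT cells. Without that library, 9 of 10 promoters ranked lower and the median difference was -2.74 percentile points.

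Among the polymerases, the REV1 promoter (chr2:99489983-99490814) showed the widest gap. It ranked at the percentiles 85.8 and 86.8 in unchallenged WT cells and 87.7 and 87.6 in unchallenged ASH1L-/- cells, against 80.0 and 69.4 in UV-irradiated WT cells and 77.9 and 75.7 in UV-irradiated ASH1L-/- cells. All 4 UV libraries lay below all 4 unchallenged libraries. The means were 87.0 ± 0.903 and 75.8 ± 4.58 (SD, n = 4 each), and the difference of -11.2 ± 4.0 (SE) had an adjusted p of 0.119 by limma. The fold enrichment was 7.74 ± 1.39 in unchallenged and 7.55 ± 0.76 in UV-irradiated cells (SD, n = 4 each). A weaker REV1 site at the edge of the same 1 kb window (chr2:99488548-99489575), singled out after its values were seen, ran the other way. It had ranks of 24.6, 10.9 and 7.15 in 3 unchallenged lists, with no region in the fourth, and of 34.8, 41.7, 30.9 and 36.1 after UV.

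The POLH promoter (chr6:43575256-43576493), which is shared with the diverging gene XPO5, ranked at 88.1, 86.4, 92.3 and 92.4 in unchallenged cells and at 88.1, 74.0, 83.5 and 86.1 after UV. These ranges overlapped, and the difference of -6.89 ± 3.46 (SE) had an adjusted p of 0.238 by limma. The REV3L promoter (chr6:111483016-111484425) differed by -8.64 ± 4.12 (adjusted p = 0.216 by limma) and that of POLI (chr18:54269047-54270420) by -4.34 ± 2.41 (adjusted p = 0.282 by limma). The promoter of MAD2L2 (chr1:11680549-11681902) differed by -2.97 ± 1.52 percentile points (adjusted p = 0.246 by limma), between ranks of 86.6 and 94.5. POLK shares its promoter (chr5:75511452-75512131) with CERT1. It was among the strongest of the 10 and ranked between 96.8 and 99.1 in all libraries.

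In the PCNA branch, the UBE2B promoter (chr5:134370774-134372358), which is shared with CDKL3, ranked at 97.7 and 92.4 in unchallenged WT cells, 94.3 and 92.4 in unchallenged ASH1L-/- cells, 88.7 and 72.9 in UV-irradiated WT cells and 82.9 and 85.3 in UV-irradiated ASH1L-/- cells. The 4 UV libraries again lay below the 4 unchallenged libraries. The means were 94.2 ± 2.52 and 82.4 ± 6.79 (SD, n = 4 each), a difference of -11.7 ± 3.45 (SE) with an adjusted p of 0.0758 by limma. Here the fold enrichment was also lower, with 11.4 ± 2.34 before and 9.41 ± 0.726 after UV (SD, n = 4 each). Its paralogue UBE2A (chrX:119574000-119574858) ranked from 83.6 to 96.3, and its difference of -3.24 ± 2.50 (SE) had an adjusted p of 0.439 by limma. The RAD18 promoter (chr3:8963020-8963732) differed by -4.56 ± 2.20 (adjusted p = 0.221 by limma). The PCNA promoter (chr20:5119215-5120455) ranked between 94.2 and 98.9 and differed by -0.29 ± 1.04 (adjusted p = 0.887 by limma). REV1 and UBE2B were thus the 2 promoters of 10 whose UV libraries lay wholly below the others, where 18.4% of all shared protein-coding promoter sites did so.

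Away from the start sites, ranks moved in both directions. Of the 15 shared sites there, 7 ranked lower and 8 higher after UV, with a median difference of 0.37 percentile points. Over the 45190 shared sites of the genome outside promoters the median was -0.761. The 2 classes differ, since the 15 were away from starts of their own gene only. They include sites at the start of another gene, such as TMEM230, which the genome set leaves out. Over all 27 shared sites of the 10 genes, 0 passed the test and 6 had an unadjusted p under 0.05, beside 15704 of 60323 in the genome. UV libraries lay wholly above the others at 2 of the 27 sites and wholly below at 3, where 5.98% and 12.3% of the shared sites of the genome did so.

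**Figure D2:**
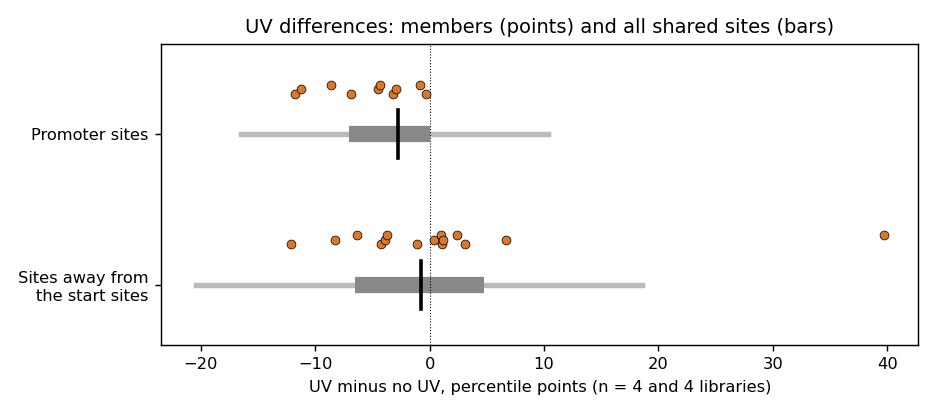
Difference in percentile between the UV and the unchallenged libraries (x axis, percentile points, 4 libraries each) at the 10 promoter sites and the 15 shared sites away from the start sites (points, spread vertically for sight only). Thick bars span the quartiles, thin bars the percentiles 5 to 95 and black lines the medians of all shared sites of the genome, within or outside protein-coding promoters. The 15 sites are away from the starts of their own gene only. The 10 promoters lie at or below 0, and 1 REV3L intron lies at 39.7, outside the thin bar.

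The 2 sites above were in REV3L and RAD18. The REV3L site (chr6:111427293-111427853) lay in an intron, 55609 bp downstream of the TSS and also within MFSD4B. It ranked at 7.91 and 50.1 in unchallenged WT cells and at 6.95 and 26.9 in unchallenged ASH1L-/- cells, against 66.7 and 53.7 in WT and 61.5 and 68.9 in ASH1L-/- cells after UV. The unchallenged libraries were low and scattered (22.98 ± 20.3), the UV libraries high and close together (62.7 ± 6.73, SD, n = 4 each). The difference was 39.7 ± 12.1 percentile points (SE, adjusted p = 0.0829 by limma), and the fold enrichment was 2.59 ± 0.631 before and 5.18 ± 0.218 after UV.

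The RAD18 site (chr3:8845547-8846346) lay in the wider span, 117543 bp from the TSS, and was singled out after its values were seen. It ranked at 88.6, 83.7, 88.0 and 84.8 in unchallenged cells and at 90.4, 94.5, 92.6 and 94.2 after UV, without overlap. The difference was 6.64 ± 2.22 percentile points (SE, adjusted p = 0.103 by limma), with fold enrichments of 7.52 ± 1.01 and 13.6 ± 2.45 (SD, n = 4 each). Below, beside both promoters, lay a site of UBE2A in its wider span, 71050 bp upstream of the TSS (chrX:119502838-119503952). It ranked at 91.8, 95.2, 94.9 and 90.5 in unchallenged cells and at 84.9, 81.9, 87.6 and 85.2 after UV, a difference of -8.24 ± 2.29 (SE, adjusted p = 0.0655 by limma).

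The strongest site outside the promoters was in the wider span of RAD18 (chr3:8869490-8870341), 93571 bp from the TSS. Its rank of 97.2 to 99.2 in the 8 libraries compared with 96.8 to 99.1 at the POLK promoter and 94.2 to 98.9 at the PCNA promoter, and it differed by 0.37 ± 0.63 percentile points after UV (adjusted p = 0.749 by limma). RAD18, whose annotated span of 188 kb was the longest, held 8 of the 27 shared sites, more than any other of the 10 genes. UBE2A, with 116 kb, held 5. Together these 2 genes held all 9 shared sites of the wider spans, which lie outside the canonical transcripts. Those at chr3:8821869-8822744 and chr3:8840410-8840975 also lay within CAV3. Per 10 kb, sites in any list ranged from 0.46 in REV3L to 4.12 in REV1, with 2.07 in RAD18 and 0.79 in UBE2A. The intron of POLK had 1 strong shared site (chr5:75565769-75567213) at ranks of 88.9 to 94.5. The strongest other sites of PCNA, UBE2B and MAD2L2 lay in the flanks, at the start of TMEM230 (chr20:5112680-5113518), within CDKL3 (chr5:134366885-134367473) and within DRAXIN (chr1:11692842-11693827). POLH, REV1 and POLI had no shared site apart from the promoter. The strongest site of POLI away from its starts (chr18:54324040-54324189) was in 1 list only, at rank 13.3.

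Presence in the lists separated UV from unchallenged cells at 4 of the 158 sites, and all 4 were gained. A gained site had a region in all 4 UV lists and in no unchallenged list, as 0.686% of all sites of the genome did, and 19.0% of the 19742 sites found in exactly 4 lists. A site of the opposite kind, lost in all UV lists, occurred at 0 of the 158 sites and at 0.0967% of all sites. Absence from a list means only that no region was called there.

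POLK gained an intronic site 56083 bp downstream of its TSS (chr5:75567670-75568086), close to its strong shared site. It was weak, at ranks of 18.6 and 23.4 in WT and 48.3 and 39.4 in ASH1L-/- cells, with fold enrichments of 2.62 to 3.78. REV3L gained an intronic site 4916 bp downstream of its TSS (chr6:111477941-111478473), at ranks of 23.6 and 49.8 in WT and 64.7 and 80.1 in ASH1L-/- cells. The site gained in the wider span of RAD18 (chr3:8792889-8793624) was the strongest of the 4. It lay 170152 bp from the RAD18 TSS and also within CAV3, at ranks of 79.3 and 77.0 in WT and 77.2 and 69.9 in ASH1L-/- cells, and its fold enrichment was 5.46 to 10.1. UBE2A gained a site in its wider span, 91869 bp upstream of the TSS (chrX:119482426-119482802), at ranks of 52.2 and 54.3 in WT and 26.5 and 37.3 in ASH1L-/- cells. With the canonical transcripts in place of the annotated spans, the RAD18 and UBE2A sites drop out and 2 gained sites remain.

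**Figure D3:**
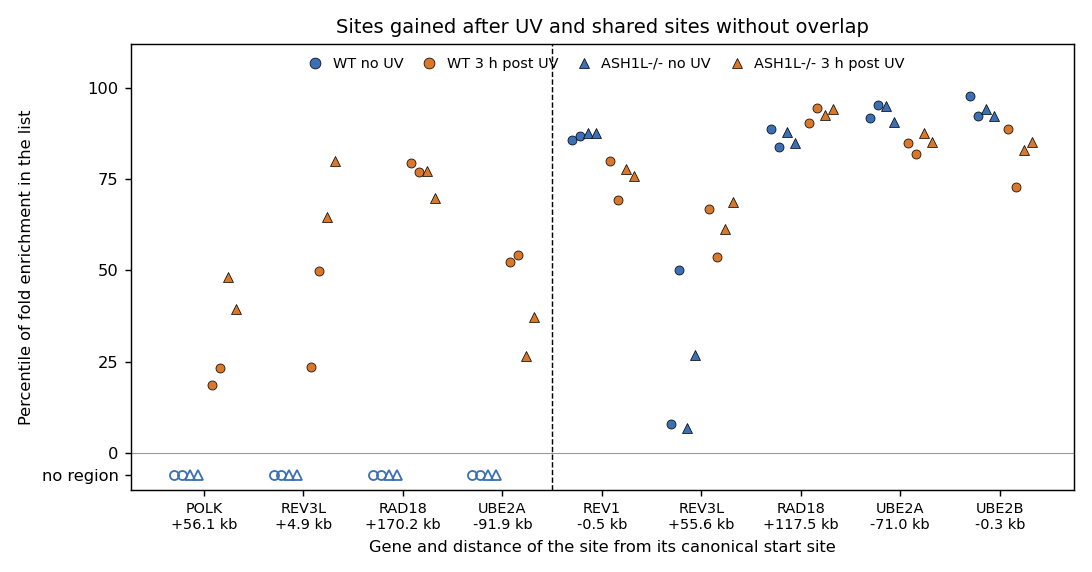
Percentile of fold enrichment within each list (y axis) at the 4 gained sites and at the 5 sites shared by all lists whose ranks did not overlap with UV (x axis, with the distance from the canonical start in kb, negative upstream), 1 point per library, symbols as in the plot of promoters and open symbols where the list had no region. Left of the dashed line are the 4 sites found in all 4 UV lists alone, and right of it the 5 shared sites with no overlap, 2 higher and 3 lower after UV, while sites present in only some unchallenged lists are not drawn.

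Partial presence was counted as well. At 12 of the 158 sites, in 7 of the genes, all 4 UV lists but at most 3 unchallenged lists had a region, as at 5.08% of all sites of the genome. The opposite held at 1 site, in POLH (chr6:43584923-43585465), and at 1.17% of all sites. This count, and the sites named from it, were chosen after the values were seen. Of the 12, 8 had a region in some unchallenged list, and the rest were the gained sites above. One of the 12 lay in a POLH intron (chr6:43608290-43609018), at ranks of 15.5, 7.13 and 42.2 in 3 unchallenged lists and of 46.8, 66.6, 61.5 and 71.4 after UV. Another lay in REV1 (chr2:99475170-99476129), at 50.1 and 67.7 in 2 unchallenged lists and at 32.7, 51.6, 74.9 and 67.3 after UV, so that the ranks overlapped. Most other internal sites came and went between libraries. REV1 alone had 41 sites, of which 28 were in 1 list and 1 in all 8.

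**Figure D4:**
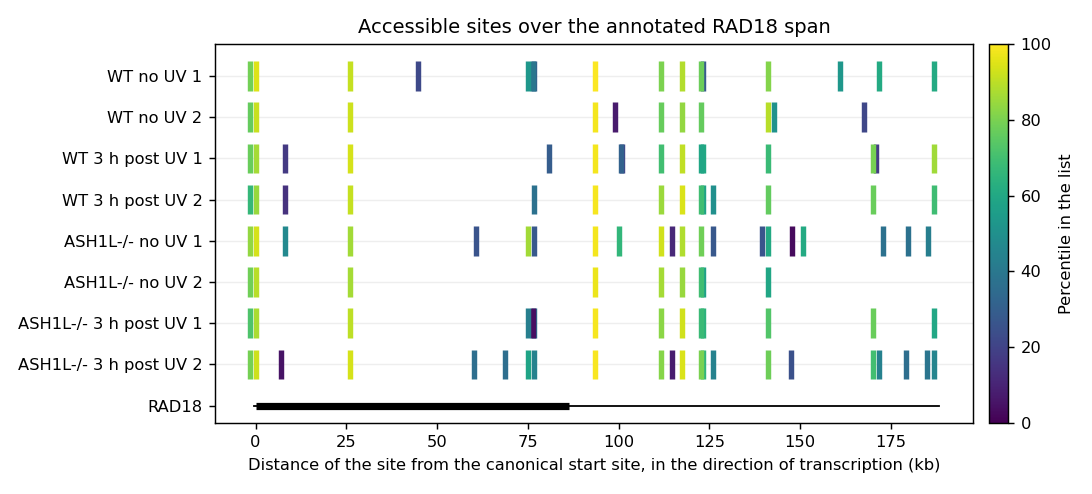
Sites over the annotated span of RAD18 in the 8 libraries (rows), by distance from the canonical start in the direction of transcription (x axis, kb), coloured by the percentile within the list, with the canonical transcript as a thick bar and the wider span as a thin line. The site 93.6 kb from the start is near the top rank in every row, and the site at 170.2 kb appears in the 4 UV rows only.

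The number of regions per gene was compared by an exact permutation test, two-sided, over the 70 assignments of the 8 libraries to 4 and 4, with adjustment over 19259 protein-coding genes. Its smallest attainable p is 0.0286, so that a gene could pass after adjustment only if a large part of all genes reached it. An unadjusted p under 0.05 was held by 475 genes for UV and 576 for genotype, and no gene passed. UBE2A had 6, 7, 5 and 6 regions in unchallenged cells and 8, 10, 8 and 10 after UV, means of 6 ± 0.816 and 9 ± 1.15 (SD, n = 4 each). POLK had 4, 4, 3 and 4 regions in unchallenged cells and 6, 5, 5 and 5 after UV, means of 3.75 ± 0.5 and 5.25 ± 0.5. In both genes all UV counts were above all unchallenged counts (exact permutation p = 0.0286, adjusted p = 1), as in 1.36% of protein-coding genes, and 1.11% had them all below. The separation was gone for UBE2A among regions with a q-value below 0.05 and with the canonical transcript, and for POLK when counts were taken as a share of the list. POLH leaned the other way, with 8, 5, 8 and 4 regions before and 3, 3, 4 and 5 after UV, which overlapped (exact permutation p = 0.143, adjusted p = 1). The other 7 genes overlapped as well. RAD18, with the longest span, had the most regions, 9 to 23 a library, and POLI the fewest, 1 to 3.

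**Figure D5:**
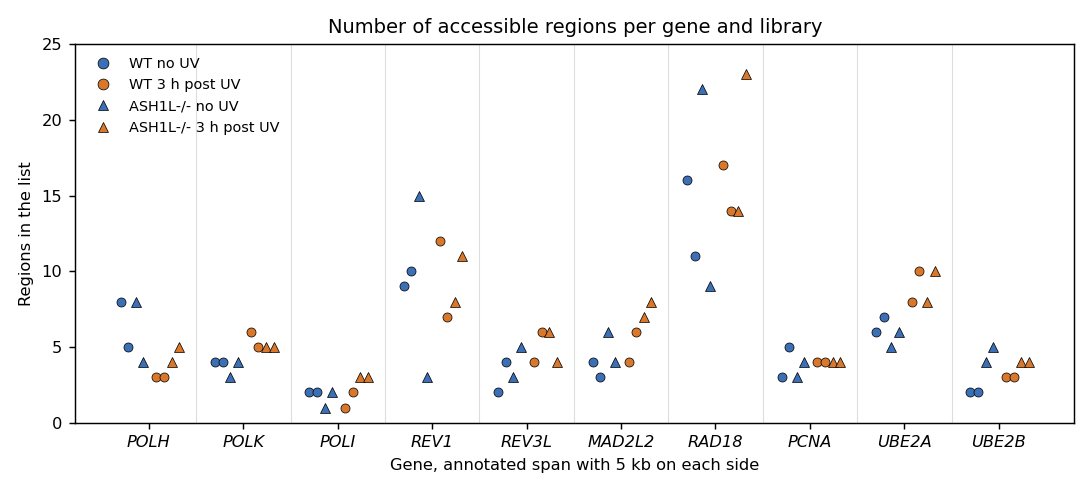
Number of regions in each list (y axis) over the annotated span of each gene with 5 kb on each side (x axis), 1 point per library, symbols as in the plot of promoters. For POLK and UBE2A the orange points lie above the blue ones, and for UBE2B the triangles lie above the circles.

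Relative to the length of the lists, the 10 genes together had 27.9 to 31.7 regions per 100000 in the 4 unchallenged lists and 35.96 to 38.6 in the 4 UV lists. The sum is a description over chosen genes, in which RAD18 weighed most, and was given no test. No matching value over other genes is given beside it, and the lists themselves differed in kind with UV. A change particular to these genes can therefore not be read from it. Without regard to list length, the mean count was higher after UV in 9 of the 10 genes and lower in POLH. The counts overlapped in 8 of the 10. The difference was only 0.25 regions in REV1, PCNA and UBE2B and 0.5 in POLI. The share of all genes with a higher mean is not given here.

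Between ASH1L-/- and WT cells, 0 of the 27 shared sites passed the test in either direction, and 0 had an unadjusted p under 0.05. Over the genome limma also called 0% of 60323 shared sites higher and 0% lower, with 5590 at an unadjusted p under 0.05. All 10 promoters ranked higher in ASH1L-/- cells, with a median difference of 1.71 percentile points. Over all shared promoters the median was 1.03, with 10093 of 15133 higher. The WT means include replicate 2 of UV-irradiated WT cells, which held the lowest rank at each of the 10. None of the 158 sites was in all 4 ASH1L-/- lists and no WT list, or the reverse, as 0.186% and 0.0768% of all sites were. UBE2B had 2, 2, 3 and 3 regions in WT and 4, 5, 4 and 4 in ASH1L-/- cells, means of 2.5 ± 0.577 and 4.25 ± 0.5 (SD, n = 4 each). It was the only one of the 10 genes whose counts did not overlap between genotypes (exact permutation p = 0.0286, adjusted p = 0.955), as 1.51% of protein-coding genes were higher and 1.49% lower without overlap. The difference was gone when counts were taken as a share of the list or limited to regions with a q-value below 0.05.

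The UV difference itself was compared between genotypes by subtracting the one in ASH1L-/- cells from the one in WT cells. It passed the test at 0 of the 27 sites and at 0% of the shared sites of the genome in either direction, with 1757 there and 1 of the 27 at an unadjusted p under 0.05. The promoters ranked lower after UV at 10 of 10 genes in WT (median -6.44 percentile points) and at 9 of 10 in ASH1L-/- cells (median -1.58). Over all shared promoters of the genome the medians were -3.91 in WT, with 76.9% lower, and -1.81 in ASH1L-/- cells, with 68.0% lower. WT included the library that held the lowest rank at each of the 10.

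The promoters of 19 other genes of the pathway were all present in the 8 lists, taking for each gene the strongest site within 1 kb of any annotated start. The share of all protein-coding genes with such a site is not given here. They included HLTF and SHPRH, ligases that extend the ubiquitin chain on PCNA, UBE2N and its partners UBE2V1 and UBE2V2, USP1 and WDR48, which remove ubiquitin from PCNA, and the polymerase subunits POLD2 and POLD3. After UV, 12 ranked lower and 7 higher, with a median difference of -2.25 percentile points, and 0 passed the test in either direction or between genotypes. Over all shared protein-coding promoters of the genome, 74.5% ranked lower, with a median of -2.80.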

How the data were processed

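ATAC-seq was performed by the authors in 8 libraries of U2OS cells. They trimmed 50 bp paired reads (cutadapt 1.9.1), aligned them (Bowtie2 2.4.5) to hg38 without chromosome Y, removed duplicates, reads with a mapping quality below 30, blacklisted regions, other contigs and mitochondrial reads (SAMtools 1.7, bedtools 2.29.2, Picard) and called peaks in each library separately (MACS2 2.2.7.1). Replicates were not pooled. The methods name default peak calling, but the lists reached a p-value of 0.01, and a q-value below 0.05 was held by 77.4% to 94.2% of the regions in each. The deposited fold enrichment is a ratio of pileup to local background. In alternatives, the deposited −log10 p-value served as another rank measure and the deposited −log10 q-value as a filter, and the authors' score, limited to 1000, was not used. A further deposited column gave the summit position. Whether the authors shifted reads for Tn5 is not given in the sources used here.

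Records sharing an interval were counted as 1 region, with the summit of highest fold enrichment. Percentiles were compared with limma 3.58.1 (R 4.3.3) using group means, a trend and Benjamini-Hochberg adjustment, and numbers of regions by an exact permutation test (Python 3.11.15, numpy 2.4.6, pandas 2.3.3). The fit for UV was tested on simulated data, with known shifts at sites of middle to high rank only. Shifts as small as those at the promoters were not simulated, so that test does not cover them. Lists hold no read counts, so depth was recovered in relative terms from pairs of fold enrichment and p-value. Sites named were the promoter and the strongest other site of each gene and sites that separated the groups, except those stated as chosen later. The members, lists and tests were chosen with earlier results of these data known. The labels do not say whether libraries with equal replicate numbers were prepared together, and the samples were not paired in the main fits. Correlations of deviations between equal numbers were −0.0797 to 0.136, which cannot decide it. Alternatives covered q-value limits, the rank measure, the minimum number of lists, the overlap, the span and each library left out. Promoter sequences came from the hg38 genome.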

Additional observations from a re-analysis of the deposited data

Results flagged for a closer look

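One site of the wider RAD18 span (chr3:8821869-8822744), 141106 bp from the TSS and also within CAV3, moved in opposite directions after UV in the 2 genotypes. It ranked at 81.5 and 89.2 in unchallenged and at 67.9 and 75.8 in UV-irradiated WT cells, and at 60.2 and 59.2 in unchallenged and at 72.9 and 77.9 in UV-irradiated ASH1L-/- cells. Subtracting the UV difference of ASH1L-/- cells from that of WT cells gave -29.2 ± 10.3 percentile points (SE, unadjusted p = 0.0181, adjusted p = 1 by limma), so it did not pass the test. With 2 libraries per group, 2.20% of the shared sites of the genome moved in opposite directions without overlap within either genotype.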

How the results depend on the processing

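The lists hold no reads, absence of a region is not absence of accessibility, and 2 libraries per group limit the tests. Counts of members past a threshold moved under 15 of 100 alternatives over 7 counts. For the UV difference, 0 of 27 sites passed, beside 4.92% of the genome. With the percentile of the −log10 p-value 1 (UBE2A) passed, beside 7.61%. With percentiles among shared sites 3 (RAD18, REV3L, UBE2B) passed, beside 13.0%, and with normal scores 1 (UBE2B), beside 10.6%. With sites in at least 4 lists and absence at percentile 0, 6 of 45 passed, beside 7.70%. Leaving out 1 library gave 0 to 2 (1, REV3L, without unchallenged WT replicate 2, and 2, PCNA and UBE2B, without UV-irradiated WT replicate 1). Genome-wide UV calls fell from 2969 to 0 without either UV-irradiated ASH1L-/- library. Gained sites numbered 2 with canonical transcripts, a setting chosen after seeing the data, and 4 to 6 without 1 library; 5 were found when regions had to cover 50% of a site, and these kept 2 of the 4. Sites separating the genotypes were 0 to 1 without 1 library, the 1 arising without unchallenged WT replicate 1 or unchallenged ASH1L-/- replicate 1. Genes with more regions after UV numbered 1 (POLK) at a q-value below 0.05, at 0.01 or below, and with canonical transcripts, and 2 (POLH, lower, and UBE2A) as shares of the list. Genes differing between genotypes numbered 0 at both q-value limits and as shares of the list. The cause was not tested. The replicate block gave 0 members and 2176 sites of the genome for UV, and changed no other call.

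Of 283 single-site alternatives over 18 sites, 266 kept direction and call. The UV difference at the PCNA promoter turned from -0.29 to 0.0627 and 0.537 at the q-value limits of 0.05 and 0.01, to 1.14 with the −log10 p-value, and to 0.315, 0.783 and 6e-04 without unchallenged WT replicate 2, UV-irradiated WT replicate 2 or unchallenged ASH1L-/- replicate 1. The PCNA flank turned to 0.851 with the −log10 p-value, the UBE2B flank to 2.20 at a q-value of 0.01, and the POLK intron to -0.036 without UV-irradiated WT replicate 1. Without 1 library, the PCNA promoter ranged from -1.37 to 0.783 and the POLK intron from -0.036 to 2.39. Adjusted p-values by limma passed in 8 cases: at the REV3L intron 0.0493 (shared-site percentiles) and 0.0458 (without unchallenged WT replicate 2), at the RAD18 site 0.0436 (shared-site percentiles), at the UBE2A site 0.0281 (−log10 p-value) and 0.0426 (sites in at least 4 lists), and at the UBE2B promoter 0.0448 (shared-site percentiles), 0.0297 (normal scores) and 0.0208 (without UV-irradiated WT replicate 1).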
